A study of Homo sapiens with 23 samples.

Results

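The sirtuin genes SIRT1 to SIRT7 were examined in peak lists of histone propionylation, butyrylation and acetylation from SW480, a colorectal cancer cell line grown in culture. The 7 genes were taken from 20033 protein-coding genes, and each was taken as its GENCODE 44 gene body with 1 kb on both sides (hg38), called its window. The choice was by name, without a threshold on any measured value.

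Sirtuins are NAD+-dependent enzymes that remove acyl groups from lysine. SIRT1, SIRT6 and SIRT7 are mainly nuclear and act on histones and transcription factors, SIRT2 is mainly cytosolic, and SIRT3, SIRT4 and SIRT5 are mitochondrial. Acetyl, propionyl and butyryl groups reach histones from the matching acyl-CoAs and accompany active promoters and enhancers.

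Chromatin immunoprecipitation followed by sequencing (ChIP-seq) recovers the DNA bound to a marked histone with an antibody against the mark. Propionylated H3K18 and H4K12 (H3K18pr, H4K12pr) were mapped under 10 mM sodium propionate (NaPr). The butyrylated sites (H3K18bu, H4K12bu) were mapped under sodium butyrate (NaBu) at 1 mM. The acetylated sites (H3K18ac, H4K12ac) were mapped after either salt and in untreated cells. Each of the 10 groups had 2 replicate libraries, and 1 input library of chromatin without immunoprecipitation was made per condition. The labels do not say whether replicates came from separate cultures, so their spread may be technical, and all libraries are of 1 cell line. Each deposited region is a MACS2 peak of 1 library, with a fold over the local background and a p-value by which the regions of a list were ranked here.

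Lists of the immunoprecipitated libraries held 8158 to 208823 regions covering 2.78 to 114 Mb, and those of the inputs 30386 to 93923 regions. Read depth was not analysed here, and a longer list covers more of every gene. Counts of sirtuins by start in a group, or by coverage between groups, therefore stand beside the percentage of all protein-coding genes with the same result. Counts of libraries, of strongest regions and of patterns over several comparisons do not, except where a percentage is given. Cut to the 8158 strongest regions, 14 of the 20 libraries shared more covered bp with the other replicate of their group than with any other library. The others were the H4K12bu and H4K12ac NaBu libraries and both H3K18ac NaPr libraries. The H3K18ac NaPr replicates had the lowest overlap of any group, 30.0% of the bp covered by either list, while replicate 1 had 51.2% with H4K12ac untreated replicate 1 and replicate 2 had 42.5% with H3K18pr replicate 2. Neither can be taken as the sound one, so pairwise comparisons of coverage that rest on this group are also given without each of them. Counts of starts, and the count over all 3 conditions of acetylation, are given with both replicates only. Of 10 epithelial and colorectal marker genes, KRT8, KRT18 and CLDN4 had a region within 1 kb of the start in both replicates of all 10 groups, whereas CDX1 and LGALS4 did so in no group and had one in 3 libraries each. Of 10 markers of other cell types, PTPRC and ALB had one in no library and CD3E and CDH5 in 1 library each, and the other 6 had one in both replicates of 1 to 4 groups, with COL1A1 and SYP at 4. The names of the lists carry run tags that set the propionyl libraries apart from the acetyl libraries, and the NaBu libraries apart from the untreated ones, so mark or treatment and tag cannot be told apart in those comparisons.

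The stretch of each gene that lay in regions of the most libraries is printed first, because it shows where on the gene the marks were found. Sequences are from hg38, 5′ to 3′ on the strand of the gene, with CG pairs in capitals.
SIRT1 chr10:67884193-67884232, + strand: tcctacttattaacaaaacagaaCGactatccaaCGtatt
SIRT6 chr19:4182183-4182312, - strand: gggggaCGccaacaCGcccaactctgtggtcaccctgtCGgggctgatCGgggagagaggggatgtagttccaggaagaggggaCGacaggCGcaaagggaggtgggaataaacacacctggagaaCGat
SIRT7 chr17:81913127-81913239, - strand: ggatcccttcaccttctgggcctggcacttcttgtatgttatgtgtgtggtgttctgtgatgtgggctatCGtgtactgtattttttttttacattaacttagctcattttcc
SIRT2 chr19:38900347-38900549, - strand: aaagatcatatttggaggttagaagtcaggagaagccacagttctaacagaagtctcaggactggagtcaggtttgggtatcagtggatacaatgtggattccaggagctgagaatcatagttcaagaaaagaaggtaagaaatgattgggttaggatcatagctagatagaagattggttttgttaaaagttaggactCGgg
SIRT3 chr11:237102-237317, - strand: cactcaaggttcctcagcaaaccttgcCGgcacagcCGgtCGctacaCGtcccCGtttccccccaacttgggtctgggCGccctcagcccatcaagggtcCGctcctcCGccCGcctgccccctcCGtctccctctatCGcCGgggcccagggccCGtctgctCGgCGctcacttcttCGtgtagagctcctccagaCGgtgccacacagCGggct
SIRT4 chr12:120302372-120302546, + strand: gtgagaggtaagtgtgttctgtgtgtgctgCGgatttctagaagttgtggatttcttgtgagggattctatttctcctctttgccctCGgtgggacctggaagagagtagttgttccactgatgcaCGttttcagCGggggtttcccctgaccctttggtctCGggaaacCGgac
SIRT5 chr6:13574777-13574979, + strand: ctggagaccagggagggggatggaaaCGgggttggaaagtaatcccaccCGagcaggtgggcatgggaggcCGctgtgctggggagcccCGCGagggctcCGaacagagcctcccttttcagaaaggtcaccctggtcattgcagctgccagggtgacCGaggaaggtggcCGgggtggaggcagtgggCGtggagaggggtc
None of these stretches held the start base of its gene. The SIRT1 stretch lay from -463 to -424 bp of the start, outside any annotated transcript, and was in 11 libraries. The stretches of SIRT4 (56 to 230 bp, 9 libraries), SIRT5 (550 to 752 bp, 16 libraries and 1 input) and SIRT6 (254 to 383 bp, 12 libraries) were just inside the gene, in introns except for 7 exonic bp in SIRT4. That of SIRT7 lay far from the start, from 8084 to 8196 bp, in an intron (13 libraries). SIRT7 had other stretches in 13 libraries from 8022 to 8075 bp, in an intron, and from 9251 to 9317 bp, in the exon of its 3′ end.

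SIRT2 and SIRT3 share their upstream DNA with genes on the opposite strand. The SIRT2 stretch (-687 to -485 bp, 15 libraries and 1 input) was in an intron of NFKBIB, which encodes an inhibitor of NF-κB. The SIRT3 stretch (-386 to -171 bp, 14 libraries) covered 43 coding and 173 intronic bp of PSMD13, a proteasome subunit gene whose start is at -35 bp. Regions there cannot be told apart as belonging to either gene. SIRT5 had further stretches in 16 libraries at its far end, from 40782 to 40879 bp and from 40669 to 40717 bp, in exons of SIRT5 and of a lncRNA, and just before the start of NOL7, a nucleolar protein gene, at 41108 bp.

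The stretches differed in composition. The SIRT3 stretch had 18 CG pairs in 216 bp with a GC content of 68.1%, and the SIRT5 stretch had 9 in 203 bp with 66.0%. The SIRT2 and SIRT7 stretches had 1 CG pair each, in 203 and 113 bp, with a GC content of 40.4% and 41.6%.

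Promoters of SIRT1 and SIRT3, the genes whose start base was held by most libraries, are printed from 250 bases before to 50 after the RefSeq start (GRCh38.p14), with CG pairs in capitals.
SIRT1 promoter chr10:67884406-67884705, + strand: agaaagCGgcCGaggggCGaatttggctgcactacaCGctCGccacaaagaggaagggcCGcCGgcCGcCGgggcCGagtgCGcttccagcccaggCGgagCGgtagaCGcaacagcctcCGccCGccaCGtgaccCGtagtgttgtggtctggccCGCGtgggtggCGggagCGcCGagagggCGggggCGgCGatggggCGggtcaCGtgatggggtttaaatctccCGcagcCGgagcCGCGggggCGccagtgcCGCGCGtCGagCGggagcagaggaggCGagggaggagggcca
SIRT3 promoter chr11:236882-237181, - strand: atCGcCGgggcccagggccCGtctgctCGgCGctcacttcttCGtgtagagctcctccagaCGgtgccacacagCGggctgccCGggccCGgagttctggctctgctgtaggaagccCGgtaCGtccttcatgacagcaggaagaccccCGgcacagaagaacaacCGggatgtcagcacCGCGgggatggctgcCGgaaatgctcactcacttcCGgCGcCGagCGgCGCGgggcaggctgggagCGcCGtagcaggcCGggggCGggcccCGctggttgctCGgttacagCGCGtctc
RefSeq promoters were matched for SIRT1 to SIRT6, 9 in all. They are not all separate, since those of SIRT5 overlap each other, as do those of SIRT6. One SIRT4 promoter has its RefSeq start at -10127 bp from the start of the gene record. The SIRT1 promoter had 39 CG pairs and the SIRT3 promoter 31, against a median of 14 over 34943 promoters of that length. The SIRT4 promoter at chr12:120302071-120302370 had 9 and a GC content of 42.3%, against a median of 58.7%. The GC box GGGCGG was found on either strand in 6 of the 9 promoters, those of SIRT1, SIRT3, SIRT5 and SIRT6, and in 44.9% of all promoters. The E-box CACGTG was in 1 promoter (SIRT1) and in 7.23% of all, TATAAA in 1 (SIRT4) and 11.6%, and CCAAT in 2 (SIRT2 and SIRT6) and 34.6%, each counted on both strands. These are letter matches in the window and nothing more.

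Across the 20 immunoprecipitated libraries the sirtuin windows held 427 regions, and across the 3 inputs 9. Of the 427 regions, 49 (11.5%) shared bp with an input region, namely 15 of 63 in SIRT2, 17 of 77 in SIRT3 and 17 of 70 in SIRT5. Over the whole lists this share ran from 5.09% in H4K12ac NaPr replicate 2 to 15.8% in H3K18ac untreated replicate 1. No input region lay over the start base of a sirtuin, and inputs covered at most 1.45% of a window.

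**Figure D1:**
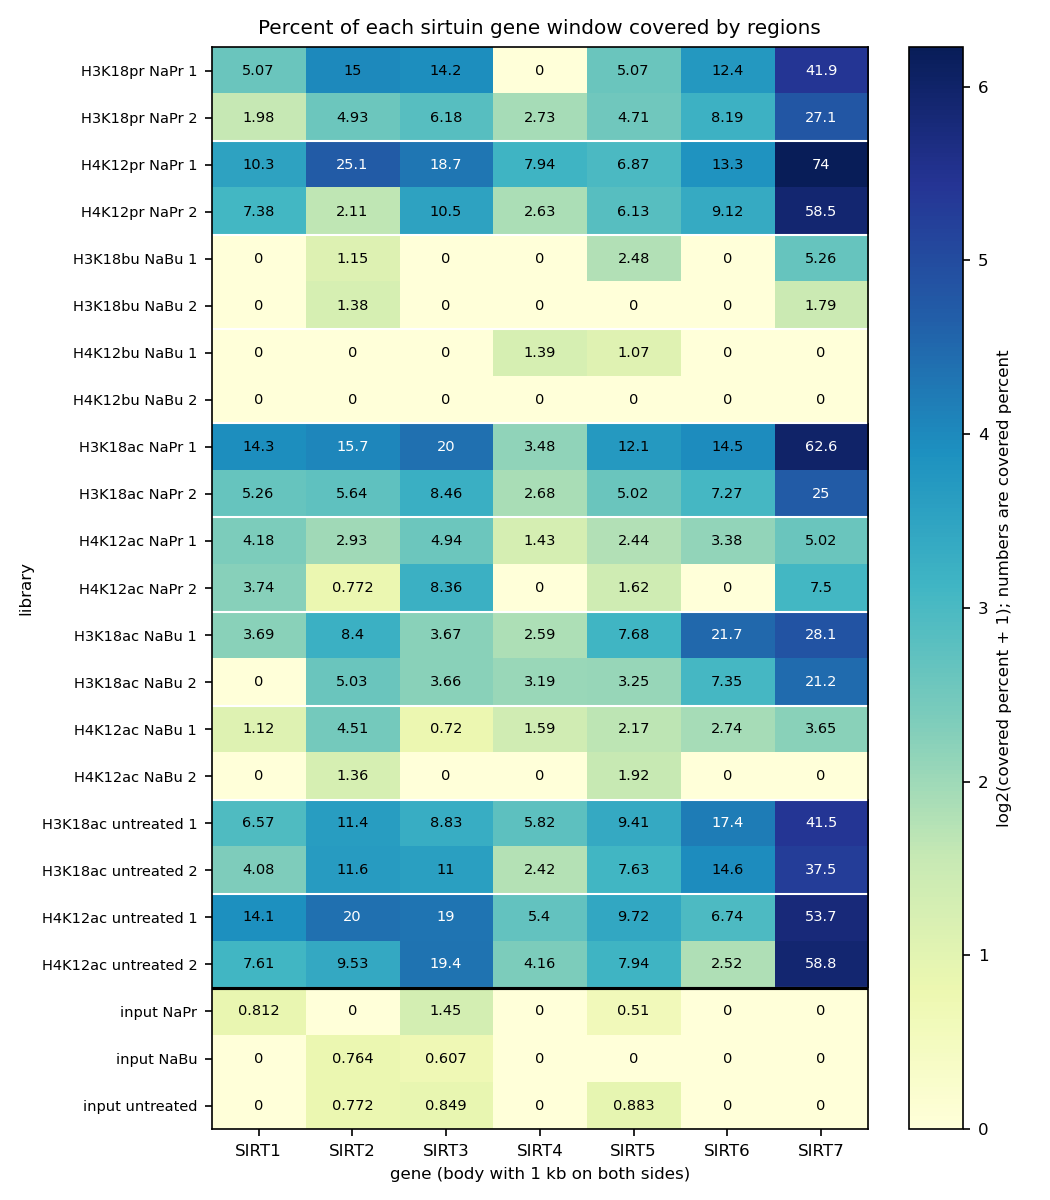
Percentage of each sirtuin window covered by regions in every immunoprecipitated and input library. SIRT7 reached the highest value, 74.0% in H4K12pr replicate 1, and the butyryl libraries covered at most 5.26% of any window.

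Among the nuclear sirtuins, SIRT7 (ENSG00000187531.14, chr17:81911939-81921323), which is known for deacetylating H3K18 and for a role in ribosomal RNA transcription, was covered most. Its median over the 20 libraries was 26.1% of the window, and its median percentile among all protein-coding genes was 96.5. The windows of SIRT7 and SIRT6 are of like length, 11385 and 10458 bp, while the median of SIRT6 was 7.004%. In propionyl libraries SIRT7 was covered to 41.9% and 27.1% by H3K18pr and to 74.0% and 58.5% by H4K12pr. In untreated cells it was covered to 41.5% and 37.5% by H3K18ac and to 53.7% and 58.8% by H4K12ac. H4K12 lay above H3K18 in both settings without overlap.

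In treated cells the acetyl values of SIRT7 had the opposite order. H3K18ac covered 62.6% and 25.0% after NaPr and 28.1% and 21.2% after NaBu. H4K12ac covered 5.02% and 7.501% after NaPr and 3.65% and 0% after NaBu. Both H4K12ac groups of treated cells lay far below untreated cells, with mean differences of -50.0 percentage points for NaPr and -54.4 for NaBu. A lower difference was found in 0.814% and 0.909% of all genes. The H4K12ac lists were also shorter after treatment, at 44.9 and 38.2 Mb for NaPr and 24.4 and 4.51 Mb for NaBu against 86.0 and 76.7 Mb in untreated cells, and the part of list length in the SIRT7 values was not tested.

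SIRT7 was also marked away from its annotated start. Its strongest region peaked within 1 kb of the start in 2 of the 17 libraries with a region, and at a median of 4822 bp. In untreated cells it peaked at 10395 and 8859 bp for H3K18ac and at 4323 and 10386 bp for H4K12ac. The summits at 10395 and 10386 bp lay just outside the window, past the start of PCYT2, in regions that reach into the window. PCYT2 starts on the same strand at 9891 bp, inside the window, and regions near it cannot be told apart as belonging to either gene. MAFG, which starts on the same strand at -6412 bp, also reaches into the window. SIRT7 has 18 annotated transcript starts, the last at 7073 bp, and 14 libraries had a region over at least 1 of them, against 7 over the start of the gene record. The widest region of any sirtuin, 3741 bp, ran across that start in H4K12pr replicate 2 and peaked at -2016 bp, outside the window.

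SIRT6 (ENSG00000077463.15, chr19:4174109-4182566), a nuclear deacylase of H3K9 and H3K18, was the sirtuin with more H3K18ac than H4K12ac in every condition. In untreated cells H3K18ac covered 17.4% and 14.6% and H4K12ac 6.74% and 2.52%. After NaPr the values were 14.5% and 7.27% against 3.38% and 0%, and after NaBu 21.7% and 7.35% against 2.74% and 0%. H3K18ac was above H4K12ac without overlap in all 3 conditions in SIRT6 and in none of the other 6 sirtuins, against 9.06% of all genes. Propionyl coverage did not have this order, at 12.4% and 8.19% for H3K18pr and 13.3% and 9.12% for H4K12pr, and no butyryl library had a region. The strongest regions peaked at a median of 272.5 bp inside the gene, and ANKRD24 starts on the opposite strand at -123 bp.

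SIRT1 (ENSG00000096717.12, chr10:67884656-67918390), a deacetylase of histones and transcription factors, was the sirtuin with no other gene annotated in its window. H3K18pr covered 5.07% and 1.98% and H4K12pr 10.35% and 7.38%. In untreated cells H3K18ac covered 6.57% and 4.08% of SIRT1, below the 14.1% and 7.61% of H4K12ac. After NaPr H3K18ac covered 14.3% and 5.26%, above the 4.18% and 3.74% of H4K12ac. The order of the sites was thus opposite in untreated and NaPr cells. After NaBu, H3K18ac covered 3.69% and 0% and H4K12ac 1.12% and 0%, and no butyryl library had a region. No SIRT1 region was among the 8158 strongest of any library.

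SIRT2 (ENSG00000068903.21, chr19:38878555-38899862), a mainly cytosolic deacetylase of tubulin, had regions in 18 libraries, yet none covered its start base, while 16 lay within 1 kb of it. H3K18ac covered 11.4% and 11.6% in untreated cells, 15.7% and 5.64% after NaPr and 8.40% and 5.03% after NaBu. The highest value was in H4K12pr, where the replicates stood far apart at 25.1% and 2.11%. SIRT2 was the sirtuin with a region within 1 kb of the start in both H3K18bu libraries, which covered 1.15% and 1.38%. Both of these regions lay over an input region. They ranked at 69.7% and 24.1% of their lists, with a −log10 q-value of 0.234 and 2.59. H3K18pr covered 14.99% and 4.93%, and H4K12ac covered 19.95% and 9.53% in untreated cells, 2.93% and 0.772% after NaPr and 4.51% and 1.36% after NaBu. H4K12ac libraries of treated cells were thus all below those of untreated cells.

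Among the mitochondrial sirtuins, SIRT3, the main mitochondrial deacetylase, and SIRT5, a desuccinylase and demalonylase, had the strongest regions of the family. In untreated cells H3K18ac reached a fold of 24.9 and 13.4 at SIRT3 and of 25.5 and 14.98 at SIRT5. A region among the 8158 strongest of its list was found in 13 of 20 libraries at SIRT5, in 11 at SIRT3 and in 9 at SIRT2. The percentage of all genes with such a region is not given here. The cut keeps all of the H4K12bu replicate 2 list and most of the 9642 regions of H4K12bu replicate 1 and the 11680 of H4K12ac NaBu replicate 2. In both H4K12pr libraries and H4K12ac untreated replicate 1, the SIRT5 region peaked at 40651, 40662 and 40818 bp, near the NOL7 start at 41108 bp. SIRT6 and SIRT7 had one in 1 library each, and SIRT1 and SIRT4 in none. That of SIRT7 peaked at -2016 bp, outside its window. The best SIRT3 region was in the top 0.735% of its list (H4K12pr replicate 1), with a median of 4.24% over 15 libraries. SIRT7, the most covered, had a median best rank of 11.2%. The strongest regions were often over input regions: this held for the strongest region of SIRT3 in 10 of 15 libraries with a region, of SIRT5 in 12 of 18 and of SIRT2 in 13 of 18, and in untreated cells for 4, 3 and 4 of 4 libraries. It held in no library for the other 4 sirtuins. The same share over all genes is not given here, and the part of input signal in these ranks was not tested.

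**Figure D2:**
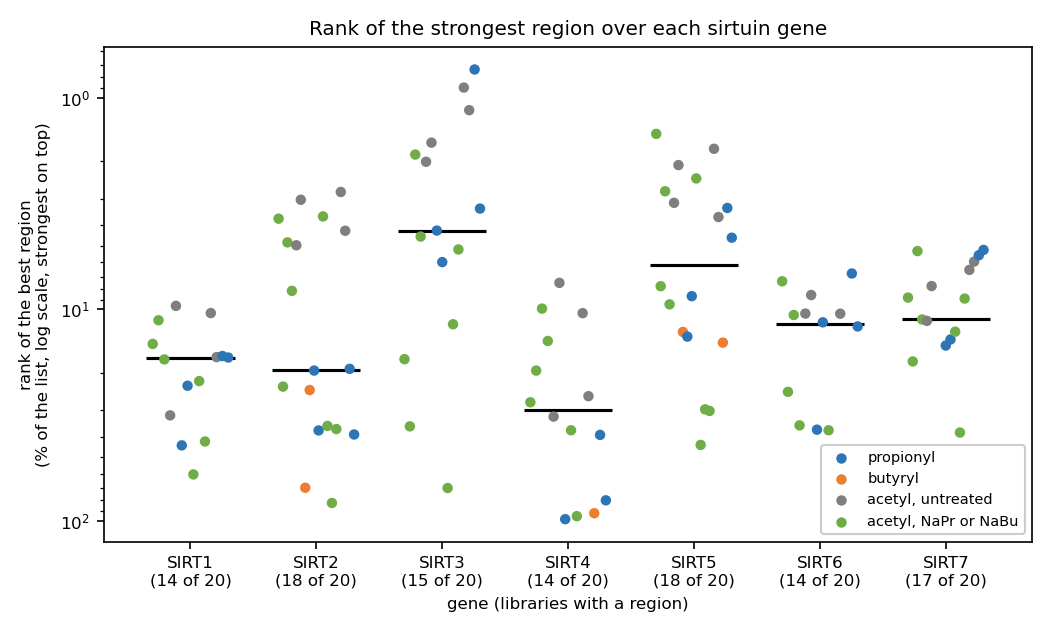
Rank of the strongest region of each sirtuin as a percentage of its list, per library, on a log axis (lower is stronger). SIRT3 and SIRT5 had the lowest medians, 4.24% and 6.18%, and SIRT4 the highest, 29.8%.

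SIRT3 (ENSG00000142082.15, chr11:215030-236931) coverage in untreated cells was 8.83% and 10.97% for H3K18ac and 19.0% and 19.4% for H4K12ac, which did not overlap. After NaBu these were 3.67% and 3.66%, and 0.720% and 0%. Propionyl marks covered 14.2% and 6.18% (H3K18pr) and 18.7% and 10.5% (H4K12pr), and no butyryl library had a region in the window. After NaPr, H3K18ac covered 19.97% and 8.46% and H4K12ac 4.94% and 8.36%. SIRT3 was thus covered in every group but the butyryl ones, with H4K12ac after NaBu present in 1 of 2 libraries.

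SIRT5 (ENSG00000124523.17, chr6:13574227-13615158) is the longest of the family at 40932 bp. H3K18pr covered 5.07% and 4.71% of it and H4K12pr 6.87% and 6.13%. In untreated cells H3K18ac covered 9.41% and 7.63% and H4K12ac 9.72% and 7.94%. The sites overlapped in untreated cells and did not in propionyl libraries. After NaPr H3K18ac covered 12.1% and 5.02% and H4K12ac 2.44% and 1.62%, and after NaBu the values were 7.68% and 3.25% against 2.169% and 1.92%. Butyryl libraries covered 2.48% and 0% (H3K18bu) and 1.07% and 0% (H4K12bu), so SIRT5 had a region in 1 library of each butyryl group.

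SIRT4 (ENSG00000089163.4, chr12:120302316-120313249), a mitochondrial sirtuin with lipoamidase and ADP-ribosyltransferase activity, was marked least. Its median coverage was 2.51%, its 19 regions were the fewest of the family, and its best region ranked at a median of 29.8% of the list. All 4 propionyl libraries lacked the stretch that 9 other libraries shared at its start. So did every H4K12ac library of treated cells and every butyryl library but H4K12bu replicate 1. Elsewhere the propionyl libraries covered 0% and 2.73% of the window with H3K18pr and 7.94% and 2.63% with H4K12pr. In untreated cells H3K18ac covered 5.82% and 2.42% and H4K12ac 5.40% and 4.16%, which overlapped. After treatment H3K18ac lay above H4K12ac, at 3.48% and 2.68% against 1.43% and 0% for NaPr, and 2.59% and 3.19% against 1.59% and 0% for NaBu.

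**Figure D3:**
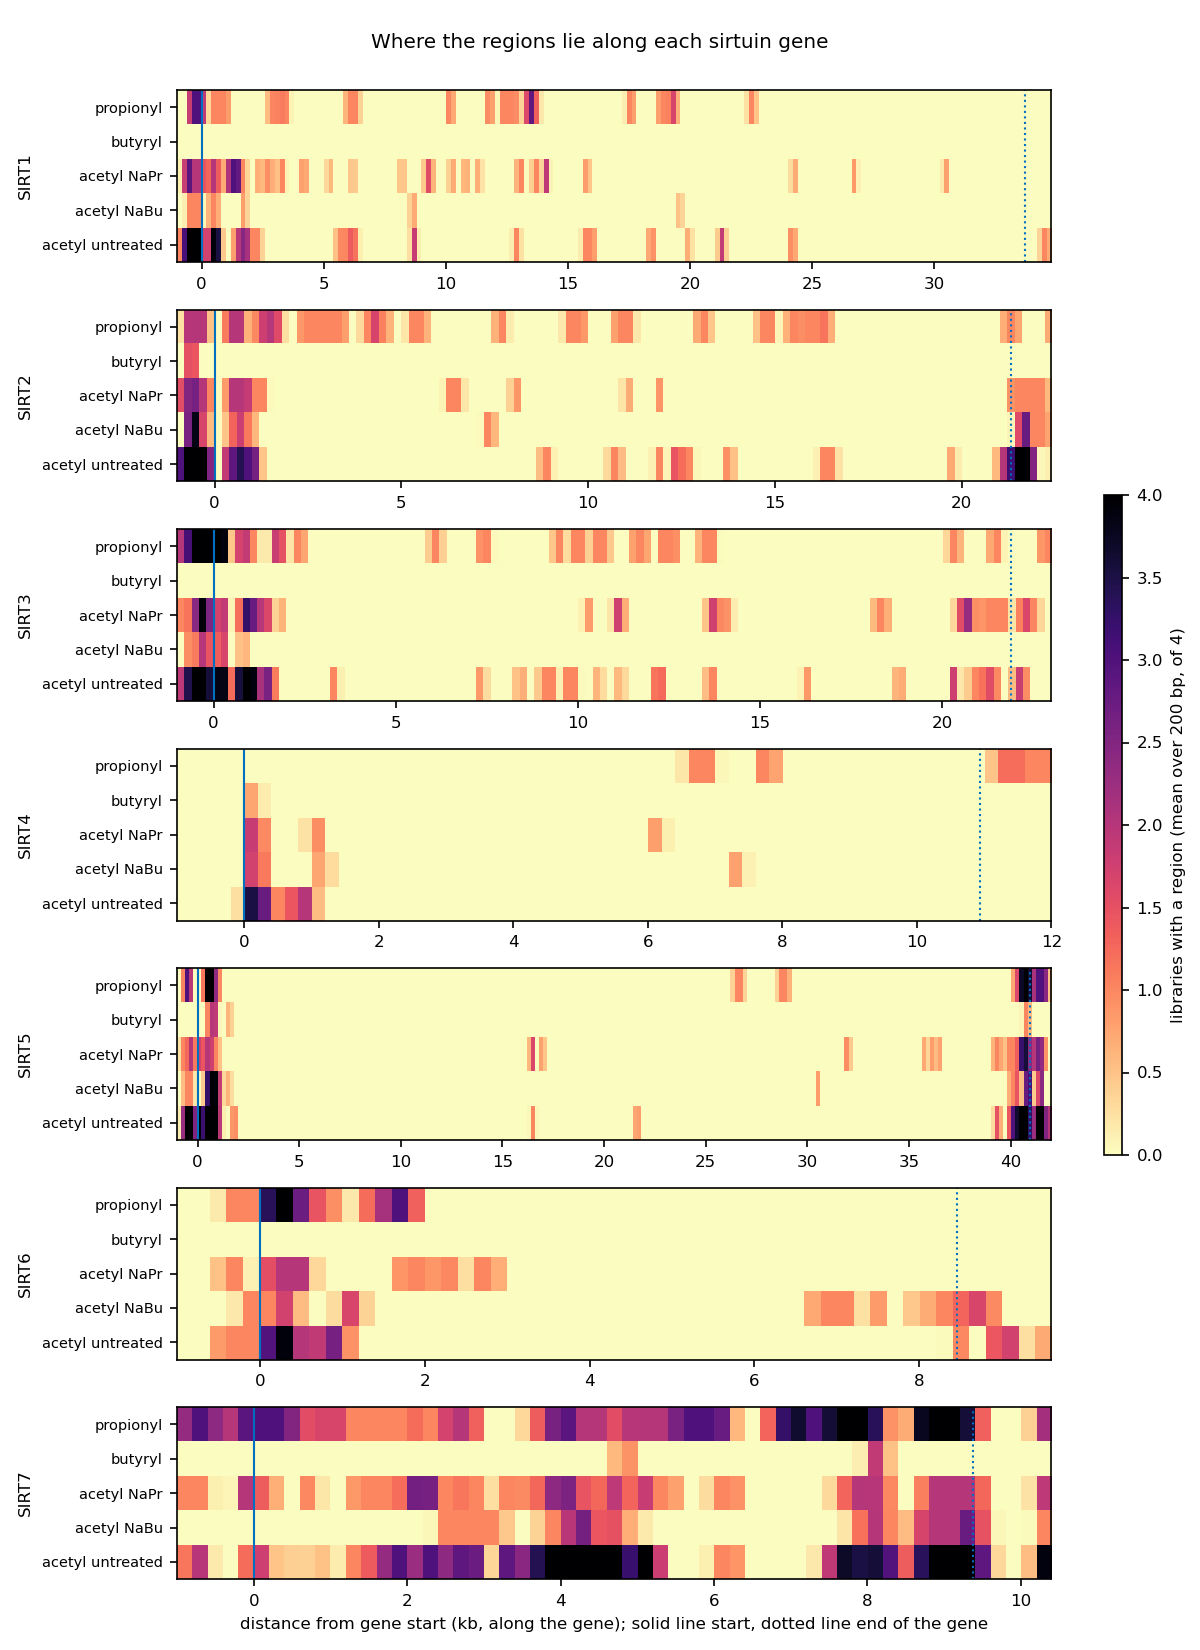
Number of libraries with a region (colour, mean over 200 bp, of 4 libraries) against distance from the start in kb along each sirtuin gene, for propionyl, butyryl and acetyl (NaPr, NaBu, untreated) libraries, with a solid line at the start and a dotted line at the end of the gene. SIRT7 was marked along much of the gene, and the stretches shared by most libraries in SIRT3 and SIRT6 lay within 386 bp of the start.

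Start sites were then compared across marks. A start was called held where both replicates of a group had a region over its base. Of the 140 pairs of library and sirtuin, 35 had a region over the start base and 89 within 1 kb of it. H3K18pr held the starts of SIRT1 and SIRT3, 2 of 7, against 13.3% of all genes, and H4K12pr those of SIRT3 and SIRT7, 2 of 7, against 13.3%. H3K18ac of untreated cells held SIRT1, SIRT3 and SIRT5, against 29.5%, and H4K12ac of untreated cells SIRT1, SIRT5 and SIRT7, against 14.2%. H3K18ac after NaPr held SIRT1 alone, against 12.6%. The other 5 groups held 0 of 7, namely H3K18bu (0.993% of all genes), H4K12bu (0.629%), H4K12ac after NaPr (1.88%), H3K18ac after NaBu (8.7%) and H4K12ac after NaBu (1.41%).

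With regions within 1 kb of the start in both replicates, more sirtuins were counted. All 7 were counted for H4K12ac of untreated cells, against 59.4% of all genes, and 6 for H3K18ac of untreated cells, against 62.1%, where SIRT7 was missing. H3K18ac after NaPr gave 6 (51.1%), again without SIRT7. H3K18pr gave 5 (42%), without SIRT2 and SIRT4, and H4K12pr 5 (48.6%), without SIRT1 and SIRT4. H3K18ac after NaBu gave 5 (42%), SIRT2 to SIRT6. H4K12ac gave SIRT2 and SIRT5 after NaBu (13.7%) and SIRT3 after NaPr (18.6%). H3K18bu gave SIRT2 (9.76%), by regions that lay over an input region in both libraries, and H4K12bu none (5.34%).

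**Figure D4:**
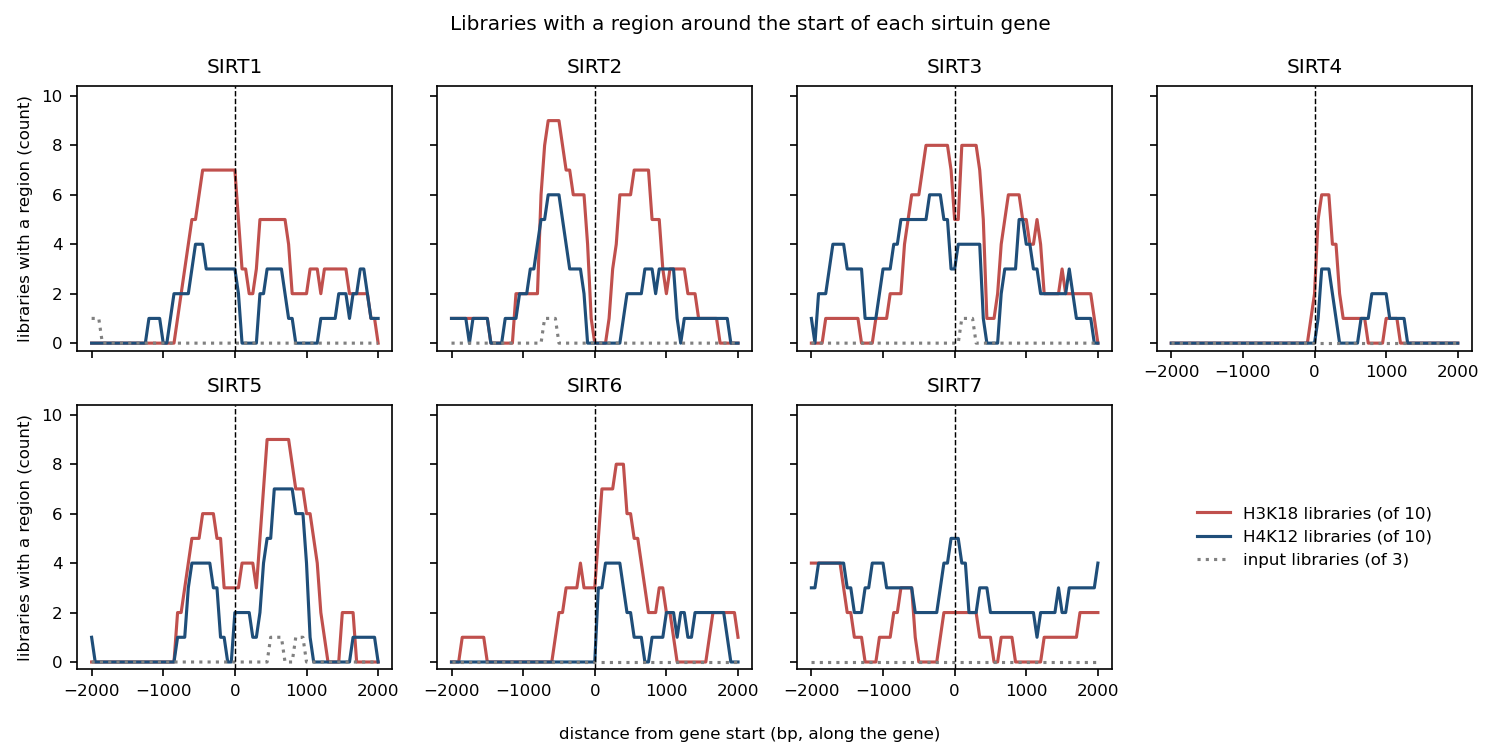
Number of H3K18, H4K12 and input libraries with a region at each position within 2 kb of the start of each sirtuin. The start base of SIRT1 was in regions of 10 of 20 libraries and that of SIRT2 in 0.

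Acyl marks were next compared with acetylation of the same site and treatment. Coverage was called apart where both libraries of one group lay above both of the other. At H4K12, propionylation lay above acetylation in 6 sirtuins, all but SIRT2, against 57.3% of all genes, and the median difference was 7.95 points against 3.41 over all genes. For SIRT4 this rested on the 1 kb after the gene. The only H4K12pr replicate 2 region lay there, at 79.9% of its list. H4K12ac NaPr replicate 1 had 185 bp inside the gene, so in the gene body alone the groups overlapped. SIRT7 led, with H4K12pr at 66.2% ± 10.96 (SD, n = 2) and H4K12ac at 6.26% ± 1.75, a difference of 60.0 points that was higher than in 99.5% of genes. At H3K18, propionylation lay below acetylation in SIRT1, 1 of 7, against 11.6%. Without H3K18ac NaPr replicate 1, SIRT1 remained lower (15.4% of all genes), while SIRT6 and SIRT7 were higher (43.7%), and the median moved from -3.66 to 1.74 points. Without replicate 2 instead, all 7 sirtuins were lower (56.8%), with a median of -7.19 points, so the direction at H3K18 depended on which replicate was used.

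Butyrylation lay below acetylation at H3K18 in 6 sirtuins, all but SIRT1, against 59.9% of all genes. SIRT7 had 3.53% ± 2.45 for H3K18bu against 24.6% ± 4.83 for H3K18ac, and SIRT6 0% in both libraries against 14.5% ± 10.2 (n = 2 each). At H4K12, SIRT2 and SIRT5 were lower, against 17.9%.

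Over the 4 strata of site and treatment together, no sirtuin passed the exact permutation test with Benjamini-Hochberg adjustment. The mean differences (acyl minus acetyl) ran from -1.74 points in SIRT6 to 6.93 in SIRT7, with an adjusted p of 1 for each of the 7. Over all genes 0% were called higher and 0% lower, the smallest adjusted p was 0.966, and 629 of 20033 genes had an unadjusted p under 0.05. In each sirtuin the acyl mark was higher in 1 stratum, propionylation of H4K12, and lower in the other 3. The medians over all genes had the same signs. They were 3.41 points for H4K12 propionylation, -0.418 for H3K18 propionylation, -1.38 for H3K18 butyrylation and -0.394 for H4K12 butyrylation. The percentage of all genes with this pattern is not given here.

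The histone sites were compared within each mark and condition. In propionyl libraries H3K18 lay below H4K12 in SIRT1, SIRT5 and SIRT7, against 39.2% of all genes, and the SIRT7 difference was -31.7 points (1.70% of genes had a lower one). In butyryl libraries H3K18 lay above H4K12 in SIRT2 and SIRT7 (18.3%). H3K18ac lay above H4K12ac in all 7 sirtuins after NaPr, against 36.2%, and in 6 after NaBu, all but SIRT1, against 41.1%. Without H3K18ac NaPr replicate 1 all 7 were still apart after NaPr (41.5%), with a median of 3.00 points in place of 7.57, and so they were without replicate 2 (71.7%), with a median of 12.8. In untreated cells SIRT6 was higher (19.7%) and SIRT1, SIRT3 and SIRT7 were lower (34%).

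No sirtuin passed the test of site over all 20 libraries, and no gene did, with 0% higher and 0% lower. The smallest adjusted p was 0.0542, and 2863 genes had an unadjusted p under 0.05. SIRT6 had a mean difference of 6.56 points (H3K18 minus H4K12), an exact permutation p of 0.0108 and a Benjamini-Hochberg adjusted p of 0.188, with the H3K18 mean higher in 3 of 5 strata and lower in 1. Under the alternatives tried its adjusted p ran from 0.0442, after the mean of all genes was subtracted from each library, to 1 with the same number of strongest regions per library. The next was SIRT5, at 1.74 points with an adjusted p of 0.517 by the same permutation test.

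**Figure D5:**
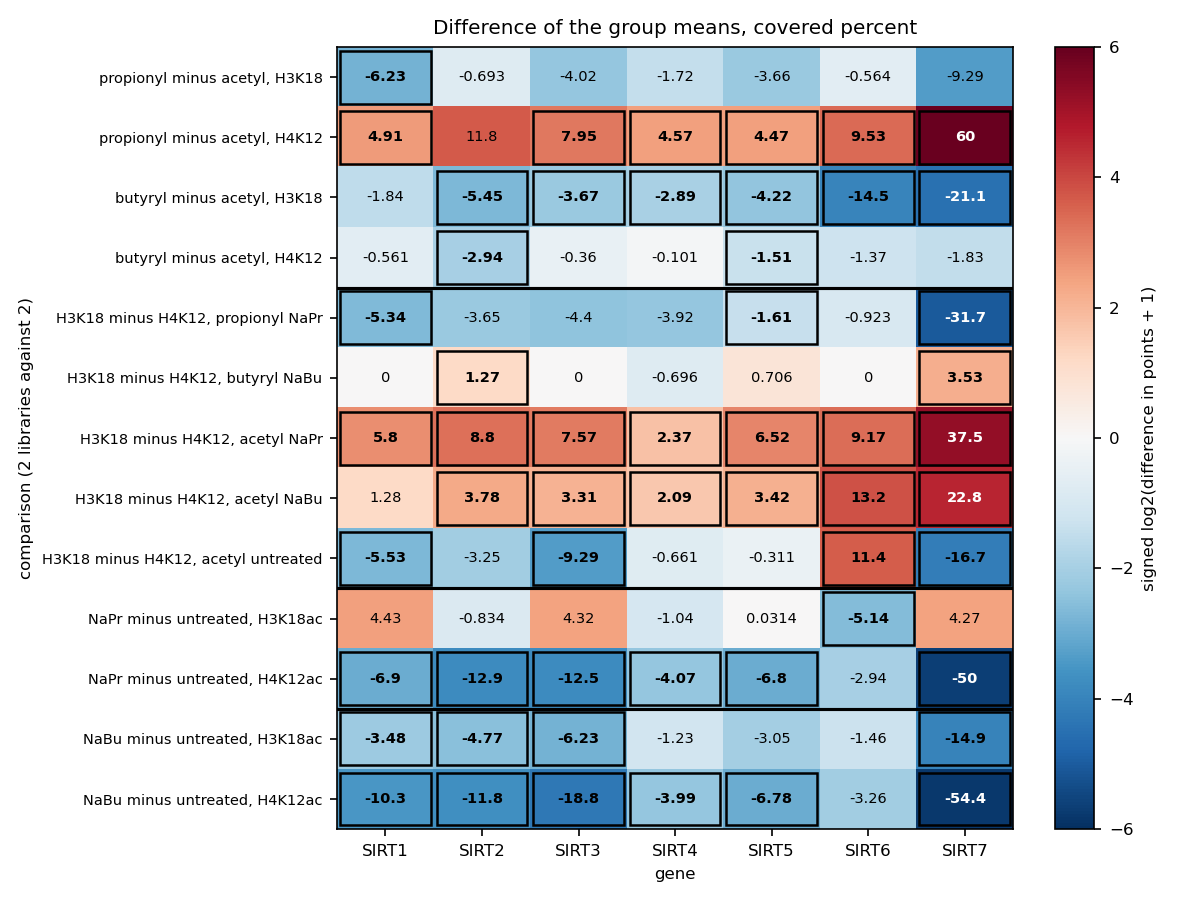
Difference in mean coverage, in percentage points, of each sirtuin in 13 comparisons of marks, sites and treatments, boxed where all libraries of the groups lay apart. SIRT7 had the largest differences, 60.0 points for propionyl minus acetyl at H4K12 and -54.4 for NaBu minus untreated H4K12ac.

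Acetylation was last compared between treated and untreated cells, with 36 arrangements of the labels and a smallest p of 0.0556, so that no test could pass. H4K12ac was lower without overlap in 6 sirtuins, all but SIRT6, both after NaPr (64.2% of all genes) and after NaBu (71%). The median differences of the sirtuins were -6.90 and -10.3 points, against -3.21 and -4.63 over all genes, and the comparisons share the untreated libraries. H3K18ac was lower in SIRT1, SIRT2, SIRT3 and SIRT7 after NaBu (56.1%). After NaPr, H3K18ac was lower in SIRT6 alone (14.5%). Without H3K18ac NaPr replicate 1, H3K18ac after NaPr was lower in 5 sirtuins, all but SIRT1 and SIRT4 (60.8%), and the median went from 0.0314 to -3.49 points. Without replicate 2 instead, it was higher in SIRT1, SIRT2, SIRT3, SIRT5 and SIRT7 (48.8%) and lower in SIRT6 (18.3%), with a median of 4.18 points. SIRT6 was thus lower in each case, though without replicate 2 only by 14.46% against 14.57% in the nearest untreated library. SIRT4 had a lower mean in each case but overlapped, at -1.44 points without replicate 1 and -0.642 without replicate 2. The direction of the other 5 turned with the replicate, with SIRT1 at -0.0672 points and overlapping without replicate 1.

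Genes that make, spend or depend on NAD+ together with sirtuins were counted as a list of 29. Regions within 1 kb of the start in both replicates were found at 22 of 29 for H3K18ac and 20 for H4K12ac in untreated cells (62.1% and 59.4% of all genes), at 14 for H3K18pr and 17 for H4K12pr (42% and 48.6%), and at 3 for H3K18bu and 2 for H4K12bu (9.76% and 5.34%). NAMPT, the rate-limiting enzyme of NAD+ salvage, had them in all 10 groups. Among other NAD+ consumers, PARP1 had them in 3 groups and PARP2 in 4, and CD38, BST1 and SARM1 in none. No group had them at QPRT and NNMT, or at PPARGC1A, a SIRT1 target. Propionylation of H4K12 lay above acetylation in 20 of the 29 and below it in 0, and butyrylation of H3K18 lay below acetylation in 22 and above it in 0, beside the same percentages of all genes as for the sirtuins.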

How the data were processed

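ChIP-seq peak lists of 20 immunoprecipitated and 3 input libraries of SW480 cells were used. The authors processed reads with an ENCODE-type pipeline (submitters' processing notes: bcl2fastq 2.17.1, cutadapt 1.8.1, Bowtie2 2.3.1, MACS2 2.1.0) on hg38, called peaks per library against input at a p-value of 0.01 and removed blacklisted regions, without pooling replicates. The deposited columns hold a fold (ratio) over local background and −log10 p-values and q-values.

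From these, the percentage of each gene window (GENCODE 44, body with 1000 bp on both sides) covered by regions was computed for 20033 protein-coding genes of chromosomes 1 to 22, X and Y. Groups were taken from the labels. Marks and sites were compared by exact two-sided permutation tests within strata (1296 arrangements, smallest p 0.00154, and 7776, smallest p 0.000257) with Benjamini-Hochberg adjustment over all genes, and the code was tested on simulated data. Python 3.11.15, NumPy 2.4.6, pandas 2.3.3 and SciPy 1.17.1 were used. All 7 sirtuins are named, and of the 29 pathway genes those with a region near the start in all groups or in none, except some not reported here. The members and lists were chosen with earlier results of these data known. Alternatives were equal list length, a q threshold of 0.05, removal of regions over input, centring, the gene body alone, a replicate block and leaving out each library. Intervals for counting error cannot be given, since no read counts were used.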

Additional observations from a re-analysis of the deposited data

Results flagged for a closer look

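Differences of opposite sign with no overlap between groups were found in SIRT1, SIRT3, SIRT5 and SIRT7. In each case the difference between the 2 contrasts was not tested. The percentage of all genes with such a pair of contrasts is not given here. Single contrasts were apart in many genes. H3K18ac lay above H4K12ac after NaPr in 36.2% of all genes, and H3K18pr lay below H4K12pr in 39.2%. Values are percentage points of the window. In SIRT1, propionyl minus acetyl was 4.91 at H4K12 and -6.23 at H3K18, 11.1 apart.

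The other cases compare H3K18 minus H4K12 between marks or conditions. In SIRT1 this was 5.80 for acetyl after NaPr, against -5.34 for propionyl (11.1 apart) and -5.53 for acetyl in untreated cells (11.3 apart). In SIRT3 it was 7.57 for acetyl after NaPr and 3.31 after NaBu, against -9.29 in untreated cells, 16.9 and 12.6 apart. In SIRT5 it was 6.52 for acetyl after NaPr and 3.42 after NaBu, against -1.61 for propionyl, 8.13 and 5.03 apart. In SIRT7 it was 37.5 for acetyl after NaPr, 22.8 for acetyl after NaBu and 3.53 for butyryl. Against -31.7 for propionyl these were 69.3, 54.5 and 35.3 apart, and against -16.7 for acetyl in untreated cells 54.2, 39.5 and 20.2 apart. The H3K18ac NaPr replicates were unlike each other, and the values that use them moved by over 1.5 times without one of them, with no change of sign. Propionyl minus acetyl at H3K18 in SIRT1 was -1.73 without replicate 1 and -10.7 without replicate 2. For acetyl after NaPr, H3K18 minus H4K12 was 1.30 and 10.302 in SIRT1, 1.81 and 13.3 in SIRT3, 3.00 and 10.05 in SIRT5, and 18.8 and 56.3 in SIRT7.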

How the results depend on the processing

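Of the summary values recomputed under each alternative, 173 kept their direction and size and 13 moved. The number of genes called between H3K18 and H4K12 went from 0 to 829 after the mean of all genes was subtracted, and ranged from 0 to 344 when 1 library was left out (344 without H4K12pr replicate 1, 114 without H3K18bu replicate 2, 113 without H3K18ac NaPr replicate 1 and 108 without H3K18pr replicate 2). After that subtraction SIRT6 had 5.88 points and an adjusted p of 0.0442 by the permutation test. The sirtuin median of NaBu minus untreated acetyl went from -6.89 to -1.85 with the same number of strongest regions and -0.456 after subtraction, and butyryl minus acetyl from -2.87 to 0 and -0.477. Starts held, summed over the 10 groups, went from 11 to 4 with the same number of regions, 6 without regions over input, 38 within 1 kb and 29 for the start of any transcript. The cause was not tested.

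Sign changes in values without a call were, for acyl minus acetyl, SIRT2 (-1.12) and SIRT3 (0.832) with the same number of regions, SIRT4 (0.0029) and SIRT6 (0.677) with q under 0.05, and SIRT3 without regions at least 50% over input (0.73) and in the gene body alone (0.215). For H3K18 minus H4K12 they were SIRT3 (1.27) and SIRT7 (-2.63) with the same number of regions, and SIRT2 (-0.444) and SIRT4 (0.596) in the gene body alone. With 1 library left out, acyl minus acetyl ranged from -2.06 to 0.192 in SIRT1, -2.21 to 3.54 in SIRT2, -1.46 to 1.41 in SIRT3, -0.698 to 0.63 in SIRT4 and -3.54 to 0.0598 in SIRT6. H3K18 minus H4K12 ranged from -1.66 to 0.144 in SIRT1, -0.911 to 3.69 in SIRT2, -1.71 to 0.588 in SIRT3, -0.695 to 0.367 in SIRT4 and -0.67 to 6.84 in SIRT7.

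Deviations of same-numbered libraries correlated at 0.0541 to 0.315, above 0.1 in 6 of 8 comparisons. The main tests did not take the numbers as pairing, and whether same-numbered libraries share an effect was not tested. With a replicate block, 0 genes were called in either test, the medians stayed at -0.0338 and 1.39 points, and SIRT6 had an adjusted p of 0.332 between sites by the permutation test.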

Other observations

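Genes were ranked by coverage within each of the 20 immunoprecipitated libraries, and these ranks were compared over the libraries by Spearman correlation, as a description only. The genes whose rank followed that of a sirtuin most closely were KIAA0753 for SIRT3 (0.932), AMMECR1L for SIRT1 (0.929) and the gene ENSG00000268870 for SIRT6 (0.9098). MYNN was closest for SIRT5 (0.908) and RPLP2, a ribosomal protein gene, for SIRT7 (0.901). COQ6 for SIRT2 (0.808) and WIZ for SIRT4 (0.738) were less close. List length moves the coverage of all genes, and its part in these ranks was not tested. Among the sirtuins themselves the closest in rank were SIRT1 and SIRT3 (0.716), and the least alike were SIRT1 and SIRT2 (-0.328).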
